A study of Mus musculus with 52 samples.

Results

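The genes of respiratory complexes III and IV and of ATP synthase were followed through an acute disturbance of protein folding in the endoplasmic reticulum (ER). They were taken by symbol, as every gene starting with Uqcr (complex III), Cox4, Cox5, Cox6, Cox7 or Cox8 (complex IV) or Atp5 (ATP synthase). The rule found 43 genes among the 22417 of the tables, 8 of them of complex III, 18 with a Cox symbol and 17 with an Atp5 symbol. Of these symbols 3 do not denote a structural subunit: Cox7a2l, a factor that joins complexes into supercomplexes, Atp5s, known as coupling factor B, and its homologue Atp5sl.

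The last steps of respiration run through these complexes. Complex III passes electrons from ubiquinol to cytochrome c, complex IV passes them on to oxygen, both pump protons out of the mitochondrial matrix, and ATP synthase lets the protons return through its membrane part while its F1 head makes ATP. Nearly all subunits are encoded in the nucleus, translated outside mitochondria and imported, many of them with a leading presequence that is removed in the matrix. The catalytic core of complex IV, cytochrome b of complex III and a pair of membrane subunits of ATP synthase are made inside mitochondria; these genes were not found under the symbols searched and are not analysed here.

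The cells were mouse embryonic fibroblasts grown in culture, all of the genotype that the labels give as CReP+/-; GADD34+/+ (WT). CReP and GADD34 are the subunits that direct a phosphatase against eIF2 alpha, a factor of translation initiation, so treated and untreated cells alike carried 1 disrupted CReP allele. Cells were untreated, exposed to thapsigargin (Tg, which blocks the pump that fills the ER with calcium) for 0.5, 1, 2 or 4 h, or given the reducing agent dithiothreitol (DTT, which opens disulfide bonds) for 30 min with 0, 10 or 20 min of recovery, and were split into an ER and a cytosol fraction, in which ribosome footprints (the stretches of mRNA covered by translating ribosomes) and mRNA were sequenced. There are 52 samples by the labels, 2 replicates in each of 26 groups, 40 in the Tg series and 12 in the DTT series. The labels do not say whether the cells were 1 line or several embryos. The DTT labels name no assay, while the DTT columns hold both footprint and mRNA scores. Which samples gave which DTT scores, and with how many replicates per assay, is therefore not known.

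The deposited tables hold 1 value per gene and group, taken here as pooled because the column headers name no replicate. There is therefore no spread between replicates, no test and no p-value in what follows, and the read depth behind each value is unknown. Footprint and mRNA values are scores in the authors' unit, with the scaling not stated, so whether levels of different genes can be set side by side is not known; where a rank among genes is given, it is a rank of scores. Differences are log2(score + 1) of 1 column minus that of another, over genes scored in all columns of the assay in that table, and a gene is counted when its difference exceeds 1 in size, a 2-fold difference. Of the summed footprint score of a condition's 2 columns the ER took 41.6% in untreated cells, 31.7% at 0.5 h of Tg and 26.4% after DTT. Differences are therefore read beside the median of all genes where that median is given. The values describe whole fractions of a culture, in which fewer cells and less RNA per cell cannot be told apart.

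The cells carried the markers of their label. All 11 fibroblast markers had footprints in untreated cells, among them Col1a1 with an ER score of 827. The epithelial, leukocyte and endothelial lists summed to at most 1.16 over both fractions, with Ptprc and Pecam1 blank. Of the neural and muscle markers 1 each had a score, Tubb3 (16.6 at the ER) and Acta1 (259.9), an actin gene whose sequence resembles that of other actins. The 12 genes of ER and secreted proteins had a median ER minus cytosol difference of 6.41 and the 8 cytosolic enzymes one of -0.69.

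Of the 43 genes, 36 had a footprint score in every Tg column. The other 7 were the tissue-restricted isoforms Cox4i2 of lung, Cox6a2, Cox7a1 and Cox8b of heart and muscle, and Cox6b2, Cox7b2 and Cox8c of testis, and all were blank throughout. As a rank of scores, not known to be per length, they stood high. The median untreated ER score was 197, against 6.38 for all genes with a score, and 30 of them lay above the 90th percentile. In the cytosol the medians were 300.02 and 8.53. Together they held 1.64% of the summed footprint score of untreated cells, 1.68% at 0.5 h of Tg, 1.43% at 4 h and 1.88% after DTT.

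Promoter sequence was at hand in RefSeq (GRCm38.p6) for 34 of the members, as 300 bases around each gene start. These motifs, known from nuclear respiratory genes, were searched on both strands: GCATGCGC, the core bound by NRF1, CCGGAAG, bound by ETS-family factors such as GABP, and AAGATGG, bound by YY1. The NRF1 core was in 6 members (17.6%, against 4.10% of all 16698 genes with such a window), the ETS motif in 10 (29.4% against 13.2%) and the YY1 motif in 5 (14.7% against 7.31%). The nearest other sets held them too: among complex I genes the shares were 12.8%, 12.8% and 17.9% in that order, and among mitochondrial ribosomal proteins 11.9%, 35.8% and 19.4%. The shares for ETS and YY1 were thus higher in the mitochondrial ribosomal proteins than in the members. All are descriptions, not sites shown to be bound. The 120 bases before the start are printed for the members described in every column below that hold a motif there, and for Atp5k, which holds the NRF1 core. Capitals mark the motifs, in Atp5k 2 overlapping matches on opposite strands, and CTTCCGG is the ETS motif read on the other strand. All are written 5′ to 3′ along the gene.
Uqcrh, chr4:116075071-116075190, minus strand: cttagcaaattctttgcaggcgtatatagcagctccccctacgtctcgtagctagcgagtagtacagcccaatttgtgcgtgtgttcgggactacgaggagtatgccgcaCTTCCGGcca
Uqcr11, chr10:80406822-80406941, minus strand: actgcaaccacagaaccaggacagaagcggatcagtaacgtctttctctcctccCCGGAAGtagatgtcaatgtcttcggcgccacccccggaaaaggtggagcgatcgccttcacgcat
Cox6b1, chr7:30626115-30626234, minus strand: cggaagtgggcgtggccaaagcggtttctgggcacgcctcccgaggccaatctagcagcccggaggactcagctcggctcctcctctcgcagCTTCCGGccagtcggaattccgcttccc
Cox6a1, chr5:115348959-115349078, minus strand: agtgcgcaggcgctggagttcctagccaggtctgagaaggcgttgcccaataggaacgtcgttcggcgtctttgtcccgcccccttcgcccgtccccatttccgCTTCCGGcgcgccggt
Atp5j, chr16:84834977-84835096, minus strand: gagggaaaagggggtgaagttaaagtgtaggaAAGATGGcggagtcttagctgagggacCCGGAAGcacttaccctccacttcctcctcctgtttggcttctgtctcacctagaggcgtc
Atp5k, chr5:108434400-108434519, minus strand: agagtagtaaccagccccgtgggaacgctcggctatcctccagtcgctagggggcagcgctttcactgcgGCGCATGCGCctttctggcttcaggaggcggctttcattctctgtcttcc

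In untreated cells most of these mRNAs carried more footprints in the cytosol than at the ER. The median ER minus cytosol difference of the 36 members was -0.77, against -0.48 for all 9323 genes, and 30 of the 36 were below 0. None was over 2-fold higher at the ER, where 12.2% of all genes were, and 8 were over 2-fold lower, against a background of 13.6%. These 8 were Uqcr10, Uqcrq, Cox7a2, Atp5e, Atp5f1, Atp5g2, Atp5l and Atp5s. The count follows the authors' scaling. In the untreated columns of the DTT table, which hold the same data scaled otherwise, the medians of the same genes were -0.97 for the members and -0.66 for all genes, and 17 members were over 2-fold lower, against 25.9% of all genes. There 5 of the 36 members and 1842 of the 9323 genes were above 0. For the Tg columns the share of all genes below 0 is not given. Relative to the median of all genes 4 members were over 2-fold off, Cox6a1, Cox4i1, Uqcrc1 and Atp5b. All 4 lay higher at the ER, and none was over 2-fold lower. The share of all genes counted in this way is not given.

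In the Tg table the other 6 members stood above 0, and they came from each of the complexes. The difference was 0.97 for Cox6a1, 0.84 for Cox4i1, 0.59 for Uqcrc1, 0.55 for Atp5b, 0.43 for Uqcrc2 and 0.038 for Atp5g1. In the untreated columns of the DTT table Atp5g1 was at -0.17 and the other 5 were above 0. Uqcrc1 and Uqcrc2 are the core proteins of complex III that face the matrix, and their partner Uqcrfs1, the Rieske iron-sulfur protein, was at -0.82. Among the 5 small subunits of complex III none was above 0, and they ranged from -1.29 (Uqcr10) to -0.38 (Uqcrh). The peripheral stalk of ATP synthase, which holds the F1 head against rotation, spanned the narrowest range of the groups, with Atp5j, Atp5h, Atp5o and Atp5f1 between -0.86 and -1.06.

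**Figure D1:**
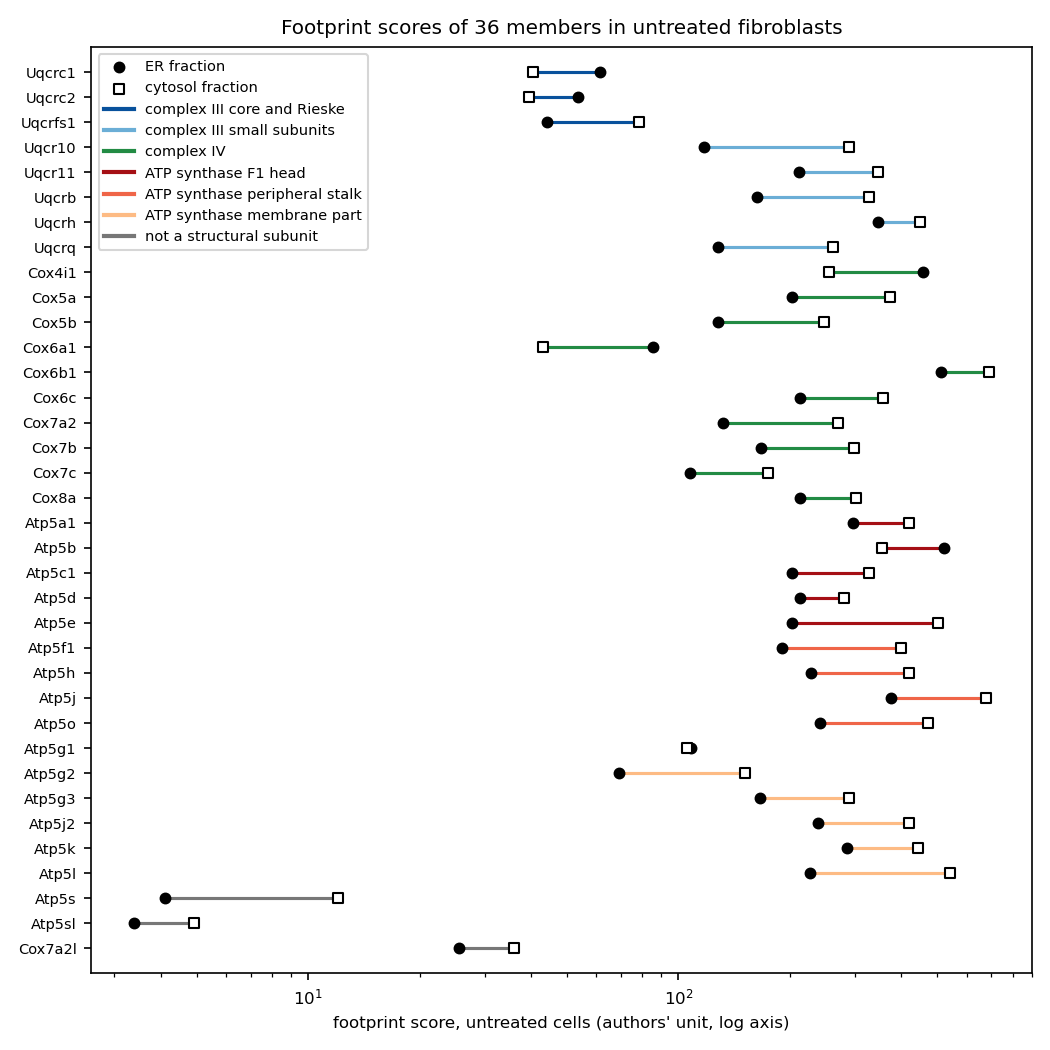
Footprint scores of the 36 members with a score in every Tg column, in untreated cells, in the authors' unit on a log axis; filled circles are the ER fraction, open squares the cytosol fraction, and line colours give the place of each subunit. The circle lies left of the square for 30 members and right of it for Cox6a1, Cox4i1, Uqcrc1, Atp5b, Uqcrc2 and Atp5g1.

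After 0.5 h of Tg the parts of the complexes differed in their medians, which was not tested. At the ER the median of the 36 was -0.45, against -0.22 for all genes, and 8 were over 2-fold lower, against 14.8% of all genes. Relative to the median of all genes the count was 4. Here and below, the share of all genes counted relative to that median is not given. The percentages of all genes belong to the counts on the authors' scale. The 8 were Atp5a1, Atp5b, Atp5c1 and Atp5d of the F1 head, Atp5f1 and Atp5h of the peripheral stalk, Cox5a of complex IV, and Uqcrfs1. None of the 36 was over 2-fold higher at the ER, where 4.66% of all genes were. In the cytosol the median was 0.25, beside 0.23 for all genes, and 3 members were over 2-fold higher, Cox4i1, Cox6a1 and Uqcrc2, against 17.5% of all genes, and relative to the median of all genes 1 was. The 12 genes of ER and secreted proteins lay at -1.30 at the ER and at 4.62 in the cytosol, all 12 of them over 2-fold higher there; the part of this in the members' cytosol scores was not tested.

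The F1 head, the catalytic part, had a median of -1.12 at the ER and -0.11 in the cytosol. Its scaffold of alpha and beta subunits is encoded by Atp5a1 and Atp5b, its central shaft by Atp5c1, Atp5d and Atp5e. At the ER Atp5d was at -1.53, Atp5c1 at -1.34, Atp5a1 at -1.12 and Atp5b at -1.10. Atp5e, the smallest of them, differed little, at -0.11.

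The ER score of Atp5b went from 521 in untreated cells to 242 at 0.5 h, then 384, 372 and 481 at 1, 2 and 4 h. Its cytosol scores in the same order were 354, 507, 472, 449 and 384. The ER was above the cytosol before treatment and at 4 h, and below it at the 3 times between.

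In the peripheral stalk the ER median was -1.01, with Atp5f1 (subunit b) at -1.51, Atp5h (subunit d) at -1.15, Atp5o, the oligomycin-sensitivity protein, at -0.87 and Atp5j, coupling factor 6, at -0.34. Atp5j had the highest summed score of the Atp5 symbols in untreated cells, which is why its values are given, and its ER scores were 375, 296, 282, 310.1 and 314 over untreated, 0.5, 1, 2 and 4 h. Its cytosol scores were 679, 716, 767, 515 and 515. In both fractions of Atp5j the highest score was within 1.5-fold of the lowest.

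The membrane part of ATP synthase differed less. Its ER median was -0.19 and its cytosol median 0.08, with none of its 6 genes over 2-fold in either fraction. The subunits e and f, Atp5k and Atp5j2, were at 0.25 and 0.15 at the ER, and subunit g, Atp5l, at -0.77. Atp5g1, Atp5g2 and Atp5g3 encode the same mature c subunit of the proton-driven ring, and their ER differences were 0.051, -0.42 and -0.76. Whether footprints were shared between such near-identical genes was not tested, so values of single c subunit genes are uncertain.

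Complex IV lay above the F1 head in both fractions. Its 10 expressed structural subunits were all higher in the cytosol at 0.5 h, with a median of 0.69, and at the ER their median was -0.064, with 5 above and 5 below 0. Cox4i1, Cox6a1, Cox6b1, Cox7a2, Cox7b, Cox7c, Cox6c and Cox8a lay between 0.50 (Cox8a) and 1.27 (Cox4i1) in the cytosol. Cox5a and Cox5b, which sit on the matrix side, were at 0.078 and 0.024 there, and at -1.24 and -0.73 at the ER.

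Cox6b1, a subunit on the intermembrane face that joins the monomers of complex IV, had the highest summed score of the Cox genes. Its cytosol scores over untreated, 0.5, 1, 2 and 4 h of Tg were 691, 1328, 1381, 732 and 609. Its ER scores were 513, 708, 412, 386 and 282. The cytosol scores at 0.5 and 1 h stood apart from the other 3, and the ER score was highest at 0.5 h and lowest at 4 h.

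Cox4i1, the largest of the nuclear-encoded subunits of complex IV, had ER scores of 458, 378, 451, 480.1 and 497. In the cytosol it had 255, 616, 599, 522 and 306. The cytosol score was more than 2-fold above untreated at 0.5, 1 and 2 h and near it at 4 h, while the highest and lowest ER scores were 1.32-fold apart.

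Cox6a1, a membrane-spanning subunit with a regulatory role, had ER scores of 85.5, 65.6, 227, 68.6 and 102. Its cytosol scores were 43.1, 92.9, 65.8, 41.9 and 33.2. The ER score at 1 h was the highest of the 10 and the only member value over 2-fold higher at the ER at that time, against 5.30% of all genes. Cox7a2, a small membrane-spanning subunit, had ER scores of 132, 199, 180.03, 117 and 77.8 and cytosol scores of 269.6, 474, 302, 182 and 106, with the highest at 0.5 h and the lowest at 4 h in both fractions.

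At 0.5 h every complex III gene but Uqcrh was below untreated at the ER. In the cytosol every one but Uqcrfs1 and Uqcr10 was above it. At 0.5 h, in the cytosol, the core proteins Uqcrc2 and Uqcrc1 were at 1.05 and 0.64 and the Rieske protein Uqcrfs1 at -0.33. At the ER the same genes were at -0.44, -0.47 and -1.03. In the cytosol the small subunits ran from 0.94 for Uqcrh through 0.31 for Uqcrb, 0.29 for Uqcr11 and 0.16 for Uqcrq to -0.64 for Uqcr10, the lowest member there. At the ER Uqcrh was at 0.72 and the other small subunits lay between -0.46 (Uqcr11) and -0.027 (Uqcrq). The core and the small subunits thus overlapped in both fractions.

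Uqcrh, the acidic hinge protein between cytochrome c1 and cytochrome c, was the member furthest above untreated at the ER at 0.5 h. Its ER scores over untreated, 0.5, 1, 2 and 4 h were 346, 569, 357, 212 and 177. Its cytosol scores were 449, 859.8, 604, 289 and 221. In both fractions the score was highest at 0.5 h and, at 2 and 4 h, below that of untreated cells, so that the highest and lowest values were 3.22-fold apart at the ER and 3.89-fold in the cytosol.

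Of the other complex III genes given in every column, Uqcr11, a small subunit of the periphery, had ER scores of 212, 154, 264, 252 and 206 and cytosol scores of 345, 423, 311, 318 and 325. Uqcr10 had ER scores of 117, 89.5, 102, 153 and 135 and cytosol scores of 289, 185, 217, 215 and 292. Uqcrc1 had ER scores of 61.4, 44.2, 51.8, 47.2 and 58.9 and cytosol scores of 40.5, 63.5, 66.7, 61.7 and 49.1. All were lower at the ER at 0.5 h than untreated, and in the cytosol Uqcr10 was lower while Uqcr11 and Uqcrc1 were higher.

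The 3 symbols that are no structural subunits had the lowest untreated scores of the 36 members in both fractions. Cox7a2l still lay above the medians of all genes. Atp5s had ER scores of 4.11, 2.40, 3.31, 4.70 and 6.79 and cytosol scores of 12.02, 13.5, 14.5, 14.7 and 16.5. Atp5sl stayed under 5 in every Tg column, where Cox7a2l lay between 18.2 and 55.5. At such scores a difference may rest on few reads, in a number that is unknown.

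**Figure D2:**
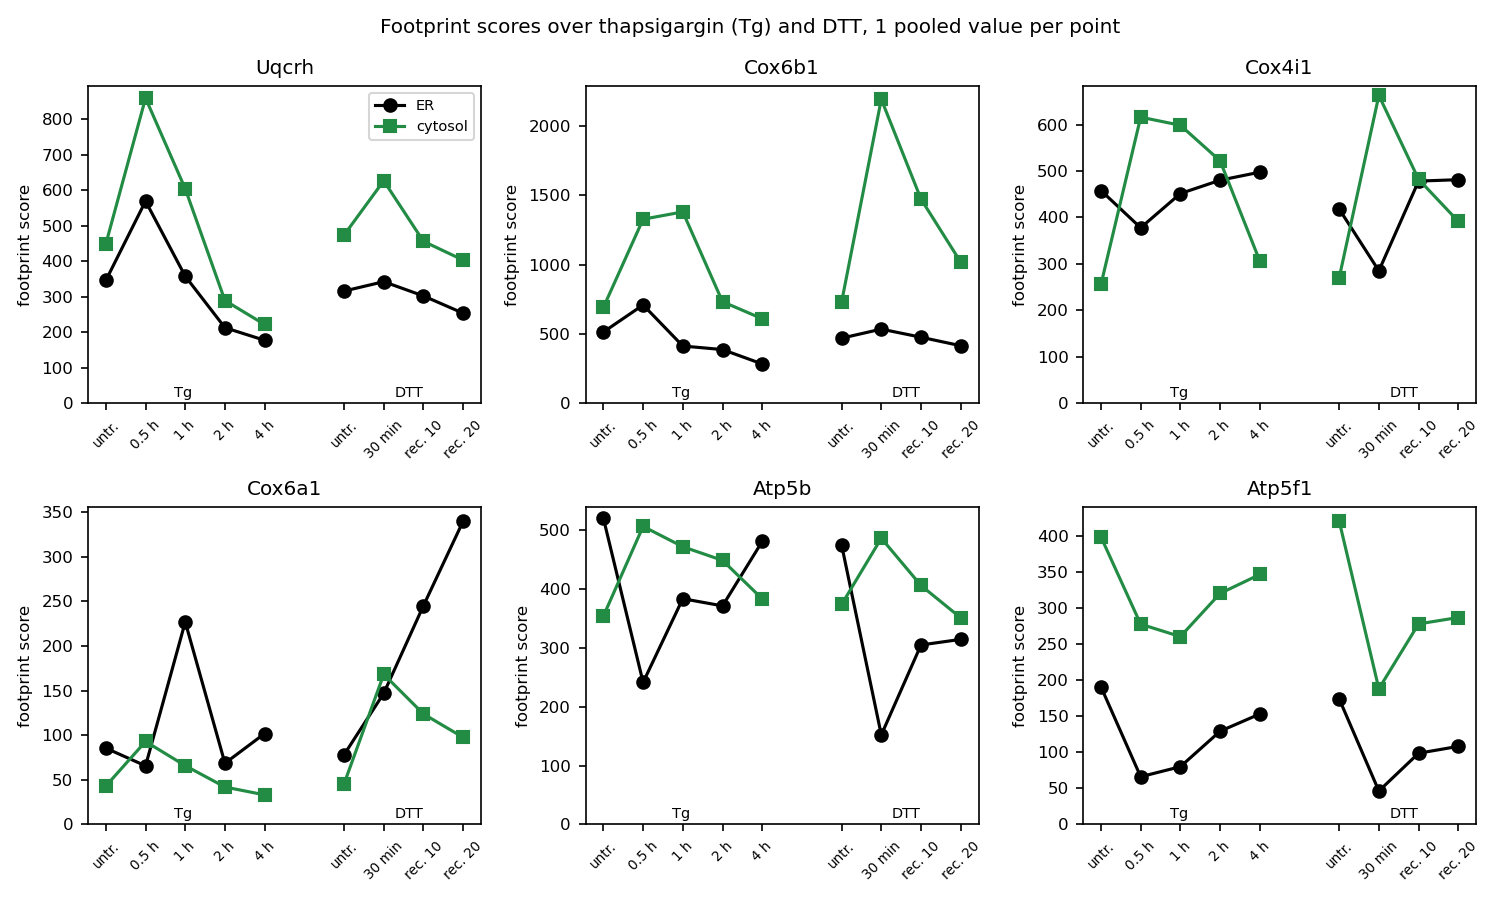
Footprint scores of 6 members (authors' unit, linear axes from 0) over Tg on the left of each panel and over 30 min of DTT with recovery (rec., min) on the right, circles for the ER and squares for the cytosol, 1 pooled value per point. Uqcrh and Cox6b1 peak early in the cytosol, Cox4i1 and Atp5b exchange their order between fractions, and Atp5f1 is lowest at the ER at 0.5 h of Tg (66.2) and after DTT (46.4).

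Taking both fractions at once, the ER shift takes the difference at the ER and subtracts that in the cytosol. At 0.5 h it was -0.66 at the median of the members and -0.41 for all genes, and 10 members were shifted over 2-fold towards the cytosol, against 20.7% of all genes. Relative to the median of all genes there were 4, with the share of all genes counted in this way not given. Of the 10, Atp5b (-1.62), Cox4i1 (-1.54), Uqcrc2 (-1.499), Cox6a1 (-1.47) and Uqcrc1 (-1.10) were among the 6 that had the higher score at the ER before treatment; since the shift subtracts that untreated difference, genes high in it are drawn towards low shifts by construction. After 0.5 h all 36 members had the lower score at the ER. For all genes the median ER score was then 35.1% of the ER plus cytosol score, so most genes also had the lower score there. The exact share of all genes is not given.

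As a share of the ER plus cytosol score, on the authors' scale, the members' median ER share was 36.99% in untreated cells, 27.7% at 0.5 h, 34.5% at 1 h, 37.9% at 2 h and 38.3% at 4 h. The median of all genes went through 40.2%, 35.1%, 40.2%, 41.6% and 45.2%. Among the members Cox6a1 had the widest course, from 66.5% to 41.4%, 77.5%, 62.1% and 75.4%.

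**Figure D3:**
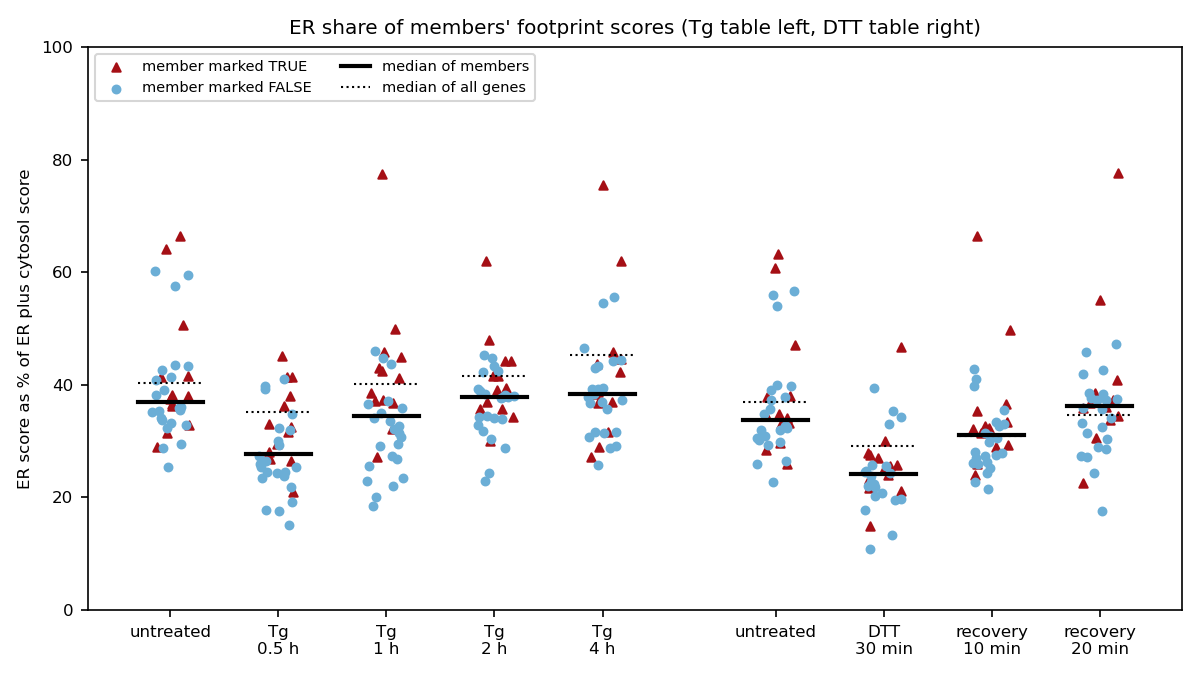
ER score as a percent of the ER plus cytosol footprint score for each member, by condition, with triangles for members marked TRUE in the deposited tables and circles for those marked FALSE; thick lines are the medians of members and dotted lines those of all genes. The members' median goes from 36.99% to 27.7% at 0.5 h of Tg and from 33.7% to 24.2% after DTT, and lies below that of all genes in all 5 Tg columns, in the untreated columns of the DTT table and under DTT, but not in recovery.

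At 1, 2 and 4 h of Tg 1 or 2 members per fraction were over 2-fold from their untreated scores. At 1 h the member medians were -0.24 at the ER and 0.15 in the cytosol, where Cox4i1 and Uqcrc2 were the 2 over 2-fold higher, against 14.9% of all genes. At the ER at 1 h, beside Cox6a1 (1.40), Atp5f1 was over 2-fold lower (-1.24), against 6.49% of all genes. At 2 h the medians were -0.25 at the ER and -0.10 in the cytosol. The medians of all genes at 1 and 2 h are not given, so the member medians at these times are not read beside them. Over 2-fold at 2 h were Atp5d, lower at the ER (-1.22, against 3.90% of all genes), and Cox4i1, higher in the cytosol (1.03, against 11.5%). At 4 h the member medians were -0.16 at the ER and -0.19 in the cytosol, where the medians of all genes were 0.16 and 0.028. Over 2-fold lower at 4 h was 1 member at the ER, Atp5sl (-1.11), against 2.08% of all genes. In the cytosol there were 2, Cox7a2 (-1.34) and Uqcrh (-1.02), against 2.24%.

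The untreated columns of the DTT table are those of the Tg table multiplied by 1 factor per fraction, so the DTT and Tg differences share their untreated data. The scores of 34 members were complete across the DTT columns, without Atp5s and Atp5sl. At the ER 8 of them were over 2-fold lower, against 19.05% of all 8315 genes, with a median of -0.35 beside -0.25. They were Atp5f1 (-1.89), Cox5a (-1.65), Atp5b (-1.64), Uqcrfs1 (-1.58), Atp5a1 (-1.41), Atp5c1 (-1.19), Atp5d (-1.14) and Cox7a2l (-1.09). The F1 head had a median of -1.19, the peripheral stalk -0.82, the membrane part of ATP synthase -0.088 and complex IV 0.10. Within the F1 head Atp5e stood apart, at -0.30.

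In the cytosol 10 members were over 2-fold higher after DTT, against 30.3% of all genes, and the median was 0.42, which lay below the 0.46 of all genes. Complex IV gave 5 of the 10, Cox6a1 (1.86), Cox8a (1.70), Cox6b1 (1.59), Cox7c (1.55) and Cox4i1 (1.29), and its median was 1.04. Of its other genes Cox6c, Cox7a2 and Cox7b lay between 0.59 and 0.78, and the matrix-side subunits Cox5a and Cox5b were below 0, at -0.82 and -0.41. The others of the 10 were Atp5g1 (2.05), Uqcrc2 (1.39), Atp5j2 (1.26), Atp5e (1.21) and Atp5k (1.14). Atp5f1 was the 1 member over 2-fold lower there, at -1.16, against 1.41% of all genes. The ER and secreted list was at 5.28 in the cytosol.

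**Figure D4:**
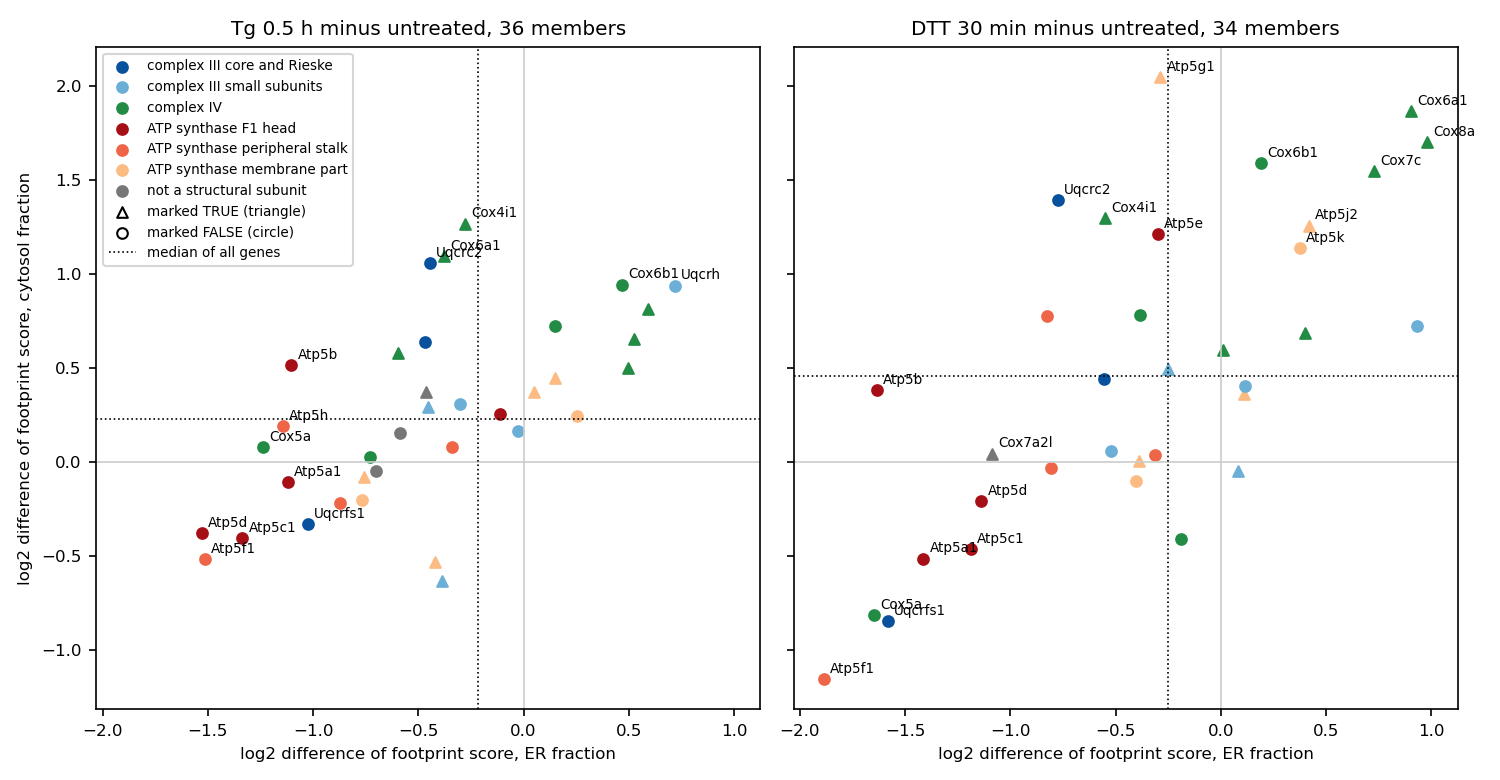
Log2 difference of footprint score from untreated cells at the ER (horizontal axis) and in the cytosol (vertical axis), for 36 members at 0.5 h of Tg and 34 after 30 min of DTT; colours give the place of each subunit, triangles members marked TRUE, circles members marked FALSE, and dotted lines the medians of all genes. The panels share the untreated data. In each, 8 members lie left of -1 on the horizontal axis, and above 1 on the vertical axis lie 3 members in the Tg panel and 10 in the DTT panel.

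Recovery from DTT differed from member to member. Over untreated, 30 min of DTT, 10 min and 20 min of recovery the cytosol scores of Cox6b1 were 729, 2196, 1474 and 1018. Its ER scores were 468, 534, 475 and 414. The ER score stayed near untreated, while the cytosol score was highest under DTT and at 20 min still above untreated.

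Cox6a1 had ER scores of 78.1, 147, 245 and 339.7. In the cytosol it had 45.4, 168, 124 and 97.5. The ER score was higher at each step while the cytosol score was highest under DTT, and at 20 min of recovery its ER score was 4.35-fold that of untreated cells.

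Atp5b had ER scores of 475, 152, 305 and 315 and cytosol scores of 374, 487, 406 and 351. Cox4i1 had ER scores of 418, 285, 478 and 481 and cytosol scores of 269.5, 663, 482 and 391. In both the ER was lowest and the cytosol highest under DTT, and at 20 min of recovery Cox4i1 again had the higher score at the ER while Atp5b did not.

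Uqcrh had ER scores of 316, 342, 302 and 253 and cytosol scores of 474, 627, 456 and 403, with the highest under DTT in both fractions. Uqcr11 had ER scores of 194, 163, 276 and 218 and cytosol scores of 365, 514, 503 and 317. Uqcr10 had ER scores of 107, 113, 146 and 143 and cytosol scores of 305, 294, 419 and 326. Uqcr11 and Uqcr10 had their highest ER score at 10 min of recovery.

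Uqcrc1 had ER scores of 56.05, 37.8, 45.3 and 34.4 and cytosol scores of 42.7, 58.3, 65.1 and 55.1, and its ER score at 20 min was below the one under DTT. Cox7a2 had ER scores of 120.3, 159, 168 and 109 and cytosol scores of 285, 458, 290.1 and 195, below untreated in both fractions at 20 min. Atp5j had ER scores of 342, 195, 271 and 209.9 and cytosol scores of 717, 699, 807 and 655, the ER score being lowest under DTT. Atp5s was blank at the ER under DTT, with cytosol scores of 12.7, 12.2, 16.4 and 12.9.

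From DTT to 20 min of recovery the median member difference was 0.40 at the ER and -0.54 in the cytosol, beside 0.34 and -0.19 for all genes. At the ER 7 members were over 2-fold higher, against 17.4% of all genes. They were Cox5a (1.63), Uqcrfs1 (1.44), Atp5f1 (1.20), Cox6a1, Cox7a2l, Atp5h and Atp5b. In the cytosol 6 were over 2-fold lower, against 17.4%, namely Cox7b (-1.37), Cox7a2, Uqcrc2, Cox6b1, Atp5e and Atp5g1. Relative to the median of all genes 2 members were over 2-fold off in each fraction, with the share of all genes counted in this way not given. The median ER share was 33.7% in the untreated columns of the DTT table, 24.2% under DTT, 31.2% at 10 min and 36.2% at 20 min.

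The tables carry a column of TRUE or FALSE without a header, whose meaning is not stated. It read TRUE for 17 members and FALSE for 26. TRUE stood at 4 of the 6 genes of the ATP synthase membrane part (the 3 c subunit genes and Atp5j2), at 10 of the 17 complex IV genes and at Uqcr10, Uqcr11 and Cox7a2l. It stood at no gene of the F1 head, the peripheral stalk, or the core and Rieske proteins of complex III.

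Across all genes the mark went with the fraction. In untreated cells the 1398 complete genes marked TRUE had a median ER minus cytosol difference of 2.80 and the 7925 marked FALSE one of -0.57. The members did not divide this way: the 13 complete TRUE members were at -0.70 and the 23 FALSE members at -0.83. No TRUE member was over 2-fold higher at the ER, where 978 of the 1398 TRUE genes were.

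At 0.5 h of Tg and after DTT the medians of members with the mark lay above those of members without it in both fractions, though the members overlapped. At 0.5 h the lowest member in the cytosol was marked TRUE (Uqcr10, -0.64) and the highest at the ER FALSE (Uqcrh, 0.72). The mark also differed between the parts of the complexes, as given above. At 0.5 h of Tg the TRUE members had a median of -0.38 at the ER and 0.45 in the cytosol, and the FALSE members -0.70 and 0.15. After DTT the TRUE members were at 0.083 and 0.68, and the FALSE members at -0.55 and 0.058. The 8 members over 2-fold lower at the ER at 0.5 h of Tg were all marked FALSE. Of the 8 over 2-fold lower there after DTT, Cox7a2l was marked TRUE and the others FALSE. The share of each mark among all genes over 2-fold lower is not given. Over all genes TRUE lay below FALSE at the ER at 0.5 h, with -0.84 and -0.13, and far above it in the cytosol, with 1.90 and 0.15. None of these differences between marked and unmarked genes was tested.

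The mRNA scores covered fewer members. Only 14 of the 43 had an mRNA score in all 10 Tg columns, 9 of ATP synthase, 4 of complex IV and 1 of complex III. Their median ER minus cytosol difference in untreated cells was 0.21, beside 0.064 for all 2389 genes, and 1 was over 2-fold higher at the ER, Cox4i1 at 1.06, against 12.1% of all genes. In the untreated columns of the DTT table the median of the same 14 was 0.0065 and Cox4i1 was at 0.85, under 2-fold.

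At 0.5 h of Tg the members' mRNA medians lay near those of all genes in each fraction. At the ER the median was -0.39, beside -0.38 for all genes, and 3 were over 2-fold lower, Atp5k (-1.58), Cox4i1 (-1.39) and Atp5c1 (-1.03), against 11.3%. In the cytosol the median was 0.36, beside 0.27, and 2 were over 2-fold higher, Cox4i1 (1.32) and Cox5b (1.07), against 10.4%. The ER shift of the mRNA was -0.98 at the median and over 2-fold towards the cytosol for 7 of the 14, against 30.6% of all genes. Relative to the median of all genes it was over 2-fold for 3, with the share of all genes counted in this way not given. Single members differed, with a shift above 0 for Atp5j (0.24), Uqcrb (0.062) and Atp5g2 (0.023). By the median ER share, all genes moved the same way as the members. The median ER share of the mRNA score went from 53.7% to 37.4% in the members and from 51.2% to 40.5% in all genes. Atp5h, Atp5j and Uqcrb were slightly above 0 at the ER, at 0.025, 0.21 and 0.06.

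The mRNA of Cox4i1 had ER scores of 52.3, 19.4, 59.2, 88.2 and 83.98 over untreated, 0.5, 1, 2 and 4 h. Its cytosol mRNA scores were 24.6, 63.04, 37.3, 23.9 and 38.7. The lowest ER value and the highest cytosol value were both those of 0.5 h.

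The mRNA of Atp5b had ER scores of 305, 238, 286, 281 and 364 and cytosol scores of 212, 416, 254, 235 and 263. Here too the ER was lowest and the cytosol highest at 0.5 h, the only time with less at the ER than in the cytosol. For Cox6b1 the ER mRNA scores were 164, 113, 86.4, 159 and 115 and the cytosol scores 239.6, 293, 137, 166 and 98.98, with the highest cytosol value at 0.5 h and the lowest at 4 h.

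In the DTT columns, 10 members had complete mRNA scores. In the cytosol their median after DTT was 0.67, beside 0.34 for all genes, and 3 were over 2-fold higher, Atp5k (1.32), Cox4i1 (1.08) and Atp5b (1.04), against 14.7%, and none relative to the median of all genes. At the ER the medians were -0.46 for the members and -0.47 for all genes, with none of the 10 over 2-fold lower, against 14.1% of all genes.

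Ribosome density, the deposited ratio of footprints to mRNA, was lower at the ER than in the cytosol for 12 of the 14 members in untreated cells. The median log2 difference was -0.61, just above the -0.64 of all 2217 genes, and 6 were over 2-fold lower, against 27.1% of all genes, with 2 over 2-fold off relative to the median. They were Atp5f1 (-1.96), Atp5g2, Atp5k, Cox5b, Atp5l and Atp5c1 (-1.03). Cox6b1 and Atp5b were the 2 above 0. The shares of all genes below 0, and of those over 2-fold off relative to the median, are not given.

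At 0.5 h of Tg the members' median density difference was -0.35 at the ER and -0.38 in the cytosol, where all genes were at -0.013 and -0.066. Single genes spread widely around these. At the ER Atp5k was at 2.08, Cox6b1 at 1.03 and Cox7c at 0.86, while Atp5h was at -1.41 and Atp5a1 at -1.13. In the cytosol Cox7c (0.76) and Cox6b1 (0.72) were highest, and Atp5f1 (-1.12), Atp5l (-1.06) and Cox5b (-1.01) lowest.

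The cytosol density of Cox6b1 was 3.0, 4.95, 10.2, 4.55 and 6.27 over untreated, 0.5, 1, 2 and 4 h. Its ER density was 3.23, 6.59, 4.73, 2.88 and 2.51. The peak in the cytosol was at 1 h, when the footprint score was also at its highest.

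Uqcrh was blank for mRNA at 4 h and so is outside the 14, but its ER density was 2.47, 12.3, 4.58 and 3.71 at the 4 times before. The ER value at 0.5 h paired a footprint score of 569 with an mRNA score of 49.1, which was 172 in untreated cells. The density of Cox6a1 at the ER at 1 h was deposited as 7.22, where the deposited scores give 4.66. It was 1 of 4 member densities that were over 1.5 times or under 0.5 times the ratio of their scores. Single columns held 14 to 24 member densities, and between 0.21% and 6.68% of all genes in a column were off in this way.

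The other parts of the oxidative machinery are given for comparison, by median and with no test. Complex I (symbols starting with Nduf, 44 complete genes) was at -0.69 at the ER and 0.027 in the cytosol after 0.5 h of Tg, between the F1 head and complex IV in both fractions. The mitochondrial ribosomal proteins were at -0.43 and 0.11 and the cytosolic ribosomal proteins at -0.49 and -0.10. After DTT the cytosol median was 0.13 for complex I, 0.10 for the mitochondrial and -0.31 for the cytosolic ribosomal proteins, against the 1.04 of complex IV.

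Among the genes that serve the complexes, the 28 complete assembly factors had a cytosol median of 0.42 at 0.5 h, with 5 over 2-fold higher, near the 17.5% of all genes. These were Cox16 (1.48), Cox19 (1.53), Pet100 (1.53), Sco2 (2.21) and Uqcc (1.08). Sco2 and Cox19 help to load copper into complex IV. The untreated cytosol score of Sco2 was only 1.95, so its difference may rest on few reads. At the ER 1 of the 28 was over 2-fold higher, Cox19 (1.01), and 3 were lower, Ttc19 (-1.20), Sco2 (-1.05) and Atpif1 (-1.02), the inhibitor of ATP synthase, against 4.66% and 14.8% of all genes. After DTT 9 of the 23 complete in that table were over 2-fold higher in the cytosol, from Cox20 (1.12) to Sco2 (2.77), beside the 30.3% of all genes. The same limit holds for Sco2 there, with an untreated cytosol score of 2.06.

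The 22 genes of mitochondrial import were at -0.36 (ER) and 0.23 (cytosol) after 0.5 h. At the ER 4 were over 2-fold lower, the matrix chaperone Hspa9 (-1.10), the peptidase Pmpcb (-1.04), Timm50 (-1.15) and the outer-membrane receptor Tomm20 (-1.85), and 1 was higher, Timm10 (1.18), against 14.8% and 4.66% of all genes. After DTT 9 of 21 were over 2-fold lower at the ER, Tomm20 (-2.89) the furthest, where 19.05% of all genes were.

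Of the 6 genes of complex II and cytochrome c, counting cytochrome c1, which belongs to complex III but has the symbol Cyc1, 1 was over 2-fold higher in the cytosol at 0.5 h, Sdha (1.01), and 1 was lower at the ER, Sdhb (-1.12). Of 9 regulators of respiratory genes with complete scores, Tfam (-1.06) and Yy1 (-1.04) were over 2-fold lower at the ER. Of all genes 14.8% were over 2-fold lower at the ER and 17.5% higher in the cytosol.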

How the data were processed

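Ribosome footprints and mRNA of an ER and a cytosol fraction were sequenced. Per the labels' protocols, footprints came from nuclease digestion, pelleted ribosomes and gel purification, and mRNA from fragmented RNA depleted of ribosomal RNA. Bowtie is named in the submitters' processing notes; its version, the build and the counting are not given in the sources used here. For footprints and mRNA the authors deposited 1 score per gene, assay, fraction and condition, with the scaling not stated, and density as the ratio of the 2. The file headers name the measure, fraction and time of each column but no replicate. As the labels give 2 samples per group, the values are taken here as pooled, and the depth is unknown. The DTT samples carry no assay in their labels, so the 2 samples of a DTT group stand for both its footprint and its mRNA columns.

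Here log2(score + 1) differences, with a pseudocount of 1, were taken over genes valued in all columns of an assay and table, and density as log2 of the ratio. Counts are of differences over 2-fold. No test was run, since the columns hold no replicates. The untreated columns of the DTT table were the Tg ones times 0.913 at the ER and 1.06 in the cytosol. The members and lists were chosen with earlier results of these data known, and the grouping by place in the complexes was written after values were seen. Members shown in every column were, per complex, those with the 2 highest summed untreated footprint scores, the highest and the lowest ER minus cytosol difference, and any over 2-fold from untreated in both fractions at 0.5 h or 4 h (none); Atp5f1, in the plot of time courses, and the other members with single values were chosen after their values were seen. Promoters came from RefSeq; protein sequences were not used here. The steps were tested on simulated data and run in Python 3.11.15 with numpy 2.4.6, pandas 2.3.3 and matplotlib 3.10.9.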

Additional observations from a re-analysis of the deposited data

How the results depend on the processing

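No paired analysis was possible because the tables hold 1 pooled value per group; for the same reason no replicate could be left out. The 21 member medians were recomputed under a pseudocount of 0.1, with genes valued only in the columns compared, with genes above the median level, with blanks as 0, centred on the median of all genes, without the non-subunits and tissue isoforms, and, for density, from the ratio of the scores. After seeing the data the untreated columns of the DTT table were added, for ER minus cytosol. Of the 125 medians so obtained, 107 lay within 0.2 of the value reported (log2), 15 lay further off, and 3 of which the reported value was at least 0.2 in size had the opposite sign. The mRNA at the ER at 4 h of Tg, reported at -0.017, was also above 0 in 2 of these settings.

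Centring on all genes accounted for 13 of these 18. Of the opposite sign were the footprints in the cytosol after DTT (-0.035), the mRNA at the ER after DTT (0.012) and the density at the ER minus cytosol in untreated cells (0.035). The centred footprint medians further off were -0.28 for ER minus cytosol in untreated cells, -0.23 at the ER and 0.021 in the cytosol after 0.5 h of Tg, -0.25 for the ER shift, -0.096 at the ER after DTT and 0.054 at the ER from DTT to 20 min of recovery. For mRNA they were -0.0066 at the ER and 0.095 in the cytosol after 0.5 h of Tg, -0.32 for the ER shift and 0.32 in the cytosol after DTT. With genes valued in the columns compared, the mRNA at the ER at 4 h was 0.18 and the cytosol density at 0.5 h -0.16. With blanks as 0 the mRNA ER shift was -0.64. With the untreated columns of the DTT table ER minus cytosol was -0.97 for footprints and 0.0065 for mRNA. The cause was not tested, beyond that centring subtracts the median of all genes.

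Counts over 2-fold depended on centring too. In untreated cells 4 members were counted for ER minus cytosol, all of them higher at the ER. After 0.5 h there were 4 at the ER, 1 in the cytosol and 4 for the ER shift. From DTT to 20 min of recovery there were 2 in each fraction. The share of all genes counted after centring is not given. At 1.5-fold, with higher and lower members counted together, the footprint count was 26 for ER minus cytosol in untreated cells. After 0.5 h it was 17 at the ER, 10 in the cytosol and 21 for the ER shift. At the ER and in the cytosol it was 9 and 6 after 4 h, 15 and 18 after DTT, and 13 and 19 in recovery. The share of all genes at 1.5-fold is not given, so these counts do not set the members apart from other genes. The read depth is unknown, so the error of low scores such as those of Atp5s and Atp5sl cannot be given.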
